A study of Mus musculus with 6 samples.

Results

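Mouse chromosomes 6 and 7 were taken as a stretch of the genome and read along their length in an osteosarcoma line. The members were all probe sets of the array that named exactly 1 gene and whose listed alignment began on chromosome 6 or chromosome 7. Chromosome 6 held 1245 such probe sets for 773 genes and chromosome 7 held 1509 for 1020 genes, so that 2754 of the 21556 single-gene probe sets of the array were members. They covered 1791 genes, of which 619 had more than 1 member probe set. Both chromosomes had been chosen by the measured difference between the groups, since the median of their probe sets lay highest in the Sox2 shRNA arrays, and the question was whether those higher values formed continuous segments. The values that picked the chromosomes are given as a description, with no test.

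RNA came from mOS482, a mouse osteosarcoma line of a spontaneous tumour that arose in an Rb and p53 null background, which all 6 arrays share. One group was stably infected with a short hairpin against Sox2 and the other with a scrambled hairpin, both selected in hygromycin, and each was grown as 3 plates of 1 infected line, with 1 array per plate. The factor Sox2 keeps embryonic and some tissue stem cells undifferentiated, and the study concerns its role in cancer stem cells of this tumour. The Affymetrix mouse genome 430A 2.0 array reads 1 colour, and the deposited values are log2, centred per probe set near the scrambled arrays, so that a value is a difference and not a level. A level over background is therefore unknown for every gene.

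Genes that lie side by side on a chromosome can move together for several known reasons. Tumour cells gain or lose chromosome arms, which shifts many neighbouring genes by a similar amount. Clusters of related genes such as the Hoxa genes, the natural killer lectins or the kallikreins share enhancers, and imprinted domains are read from the copy of 1 parent. Chromosome 6 of the mouse carries the Hoxa cluster and the natural killer gene complex, and chromosome 7 carries the Peg3 and Igf2-H19 imprinted domains, the kallikreins, and the Trim and Ifitm families of antiviral genes.

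Sox2 itself, the target of the hairpin, showed no fall on these arrays. Its probe set lay at 0.17, 0.055 and 0.58 in the Sox2 shRNA arrays and at 0.069, -0.039 and -0.033 in scrambled arrays, a difference of 0.27 ± 0.15 on the log2 scale (limma adjusted p = 0.18). Here and below ± stands for the standard error of limma, with n = 3 arrays in each group. The groups overlapped in their values. Signal that never rose over background would hide a fall, so every direction below is that of the arrays as labelled. Over all single-gene probe sets the array medians were 0.065, 0.040 and 0.029 with Sox2 shRNA and 0.0020, 0 and -0.0023 with scrambled shRNA. The mean of the 45 spike-in probe sets, which read control transcripts added during preparation, was 0.67, 0.32 and 0.27 in Sox2 shRNA arrays and 0.11, -0.060 and -0.10 in scrambled arrays. Of 12 probe sets for osteoblast lineage genes, 3 were called higher (Col1a1 on both of its probe sets, Alpl) and 2 lower (Runx2, Col1a2). Both genes with lower calls were split. Runx2 stood at -1.19 on the called probe set and at 0.012 and 0.70 on others, and Col1a2 at -0.77 and, not called, -0.06. Of 15 for macrophage, endothelial and epithelial genes, 4 were called higher: Csf1r (1.35, 0.54 and 0.40) and Krt8 (0.49, with 0.26 and 0.26 not called). Cd68, Ptprc, Adgre1 and the endothelial genes were not called. The 15 had sums of 6.72, 4.58 and 4.84 in Sox2 shRNA arrays and 0.066, 0.41 and -0.20 in scrambled arrays. Which of these markers lie at 0 is unknown in centred values. The part of these markers in the results below was not tested, and the spike-in level was tried as a covariate. Every Sox2 shRNA array had a higher spike-in mean than every scrambled array. The covariate and the hairpin therefore cannot be fully told apart, and changes under that fit, given below, have no settled reading. In bulk RNA, fewer cells of a type and less RNA per cell cannot be told apart.

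Several interferon-induced genes of chromosome 7 were called higher, so the promoters of 3 of them are shown. They are the RefSeq sequences from 250 bases before to 50 bases after the start of transcription, on build GRCm38.p6, read 5′ to 3′ on the strand of the gene. Trim30a and Ifitm3 were among the largest rises of the chromosome, and Trim21 was chosen after its values and its promoter were seen. Capitals mark the letters GAAANNGAAA or their reverse complement, the core of the element that interferon regulatory factors bind.
Ifitm3, chr7:141010695-141010994, minus strand: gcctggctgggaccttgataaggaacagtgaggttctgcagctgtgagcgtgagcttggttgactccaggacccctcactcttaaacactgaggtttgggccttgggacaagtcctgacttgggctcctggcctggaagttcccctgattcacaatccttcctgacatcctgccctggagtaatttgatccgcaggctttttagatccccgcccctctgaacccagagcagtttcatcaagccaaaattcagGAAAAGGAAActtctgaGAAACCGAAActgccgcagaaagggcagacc
Trim21, chr7:102565433-102565732, minus strand: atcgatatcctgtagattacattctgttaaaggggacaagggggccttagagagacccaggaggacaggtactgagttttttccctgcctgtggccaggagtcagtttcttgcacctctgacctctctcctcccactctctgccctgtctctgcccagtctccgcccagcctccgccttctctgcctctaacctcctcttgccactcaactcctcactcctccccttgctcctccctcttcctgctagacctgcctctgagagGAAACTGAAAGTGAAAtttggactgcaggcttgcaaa
Trim30a, chr7:104465144-104465443, minus strand: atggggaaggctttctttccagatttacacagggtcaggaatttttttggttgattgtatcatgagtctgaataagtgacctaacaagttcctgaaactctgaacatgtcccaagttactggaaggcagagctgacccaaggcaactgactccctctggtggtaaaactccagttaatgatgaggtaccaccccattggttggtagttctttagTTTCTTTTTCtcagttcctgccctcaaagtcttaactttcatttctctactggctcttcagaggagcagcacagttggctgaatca
Trim30a, chr7:104446076-104446375, minus strand: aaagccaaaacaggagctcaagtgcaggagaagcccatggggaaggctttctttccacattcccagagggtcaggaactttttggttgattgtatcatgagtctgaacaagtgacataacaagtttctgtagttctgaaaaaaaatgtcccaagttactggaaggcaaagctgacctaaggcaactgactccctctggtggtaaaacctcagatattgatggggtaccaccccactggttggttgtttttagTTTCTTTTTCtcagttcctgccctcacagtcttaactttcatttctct

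In Ifitm3 the motif began 2 and 19 bases after the start of transcription, and in Trim21 13 and 19 bases after it, where both matches share letters. In the first Trim30a promoter shown it began 36 bases before the start of transcription, and in the other 2 bases after it. Searched on both strands, the motif was in 8 of the 17 promoters listed for interferon genes of these chromosomes, in 7 of 14 genes, and in 1131 of all 32851 mouse promoters, or 3.44%. On chromosomes 6 and 7 as a whole the share was 3.31%, 154 of 4655 promoters. The other genes with it were Ifitm2, Trim30d, Trim34a and Trim12a, the last not called. The windows of Irf7, Parp12, Isg20, Ifitm6, Apobec1, Irf3 and Ifitm1 did not hold these letters, which says nothing of the factor. A match is a description of letters and not a binding site.

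Read as whole chromosomes, 6 and 7 lay a little higher in the Sox2 shRNA arrays, which is the difference they were chosen by. The median of chromosome 6 was 0.16, 0.12 and 0.12 in Sox2 shRNA arrays and 0.0073, 0 and -0.0013 in scrambled arrays. The median of chromosome 7 was 0.18, 0.11 and 0.092 in Sox2 shRNA arrays and 0.0031, 0 and -0.013 in scrambled arrays. All 3 Sox2 shRNA arrays lay above all 3 scrambled arrays on both chromosomes, as they did over the array as a whole. The median log2 difference was 0.15 on chromosome 6 and 0.15 on chromosome 7, against 0.075 over all probe sets and -0.078 (chromosome 10) to 0.13 (chromosome 18) on the 18 other chromosomes. Adding the spike-in mean to the fit gave a median difference of 0.10 on chromosome 6 and 0.046 on chromosome 7.

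A probe set is called here when its Benjamini-Hochberg adjusted p from limma, over all 21556 probe sets, is under 0.05. On chromosome 6, 227 probe sets (18.2%) were called higher, and on chromosome 7 it was 249 (16.5%), where 14.6% of all probe sets were. Calls of lower values numbered 117 (9.40%) on chromosome 6 and 145 (9.61%) on chromosome 7, against 20.5% of all probe sets. Because this comparison picked the chromosomes, nothing is read from these shares. Probe sets called and at least 2-fold higher were 45 on chromosome 6 and 36 on chromosome 7 (3.61% and 2.39%, against 2.76% of all), and those at least 2-fold lower were 21 on each (1.69% and 1.39%, against 4.95%). The calls depended on single arrays. Without scrambled array 3 they fell to 110 higher and 60 lower on chromosome 6 and to 113 higher and 73 lower on chromosome 7, without scrambled array 1 to 149 and 71, and 138 and 84, and without scrambled array 2 to 134 and 66, and 130 and 80. With the spike-in covariate they were 100 and 28 on chromosome 6 and 87 and 38 on chromosome 7.

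**Figure D1:**
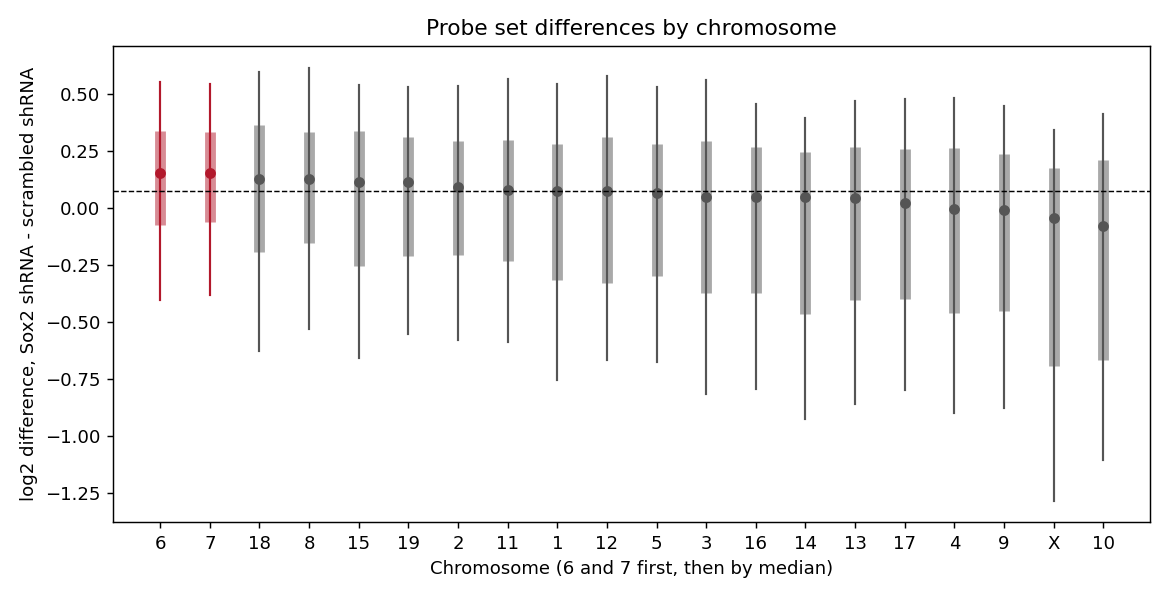
Log2 difference, Sox2 shRNA minus scrambled shRNA, of single-gene probe sets on each chromosome (point: median; thick bar: 25th to 75th percentile; thin line: 10th to 90th percentile; dashed line: median of all probe sets, 0.075). The upper ends of chromosomes 6 and 7 (90th percentiles 0.55 and 0.54) lie among those of the other chromosomes (0.34 to 0.61), while their 10th percentiles (-0.41 and -0.38) lie above all others (-1.28 to -0.53).

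The plot of differences by chromosome describes the spread of that difference, with no test. The 90th percentile of the difference was 0.55 on chromosome 6 and 0.54 on chromosome 7, against 0.34 to 0.61 on the other chromosomes, and exceeded 13 and 12 of the 18. The 10th percentile was -0.41 on chromosome 6 and -0.38 on chromosome 7, against -1.28 (X) to -0.53 (chromosome 8), and so was higher than on any of the 18. The 75th percentile exceeded that of 17 and 16 of the 18. The share called higher exceeded that of 16 and 14 of them, and the share called lower was smaller than on all 18, whose lowest was 13.3% on chromosome 8. The share above 0 was 70.4% and 70.0%, against 45.3% to 64.2% elsewhere.

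Cut into windows of 10 Mb and ordered by start, the higher values did not form continuous segments at the margin used. A window counted as high when the centred window medians of all 3 Sox2 shRNA arrays lay above those of all 3 scrambled arrays and its median difference exceeded that of all probe sets by at least 0.1, which sets a floor of 0.17. On chromosome 6, 2 of 15 windows were high, from 60 to 70 Mb and from 120 to 130 Mb. On chromosome 7, 3 of the 15 windows with at least 10 probe sets were high, from 50 to 60, from 110 to 120 and from 140 to 150 Mb. No 2 of these 5 windows were neighbours, so the longest segment was 1 window on each chromosome. The floor of 0.17 lay above the median difference of either whole chromosome, 0.15. An even shift of that size along a chromosome would therefore not count as a segment by this rule. On the other chromosomes 16 of 236 windows were high (6.78%), with a longest segment of 2 windows. Coordinates come from the authors' annotation of the array, which names no build.

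**Figure D2:**
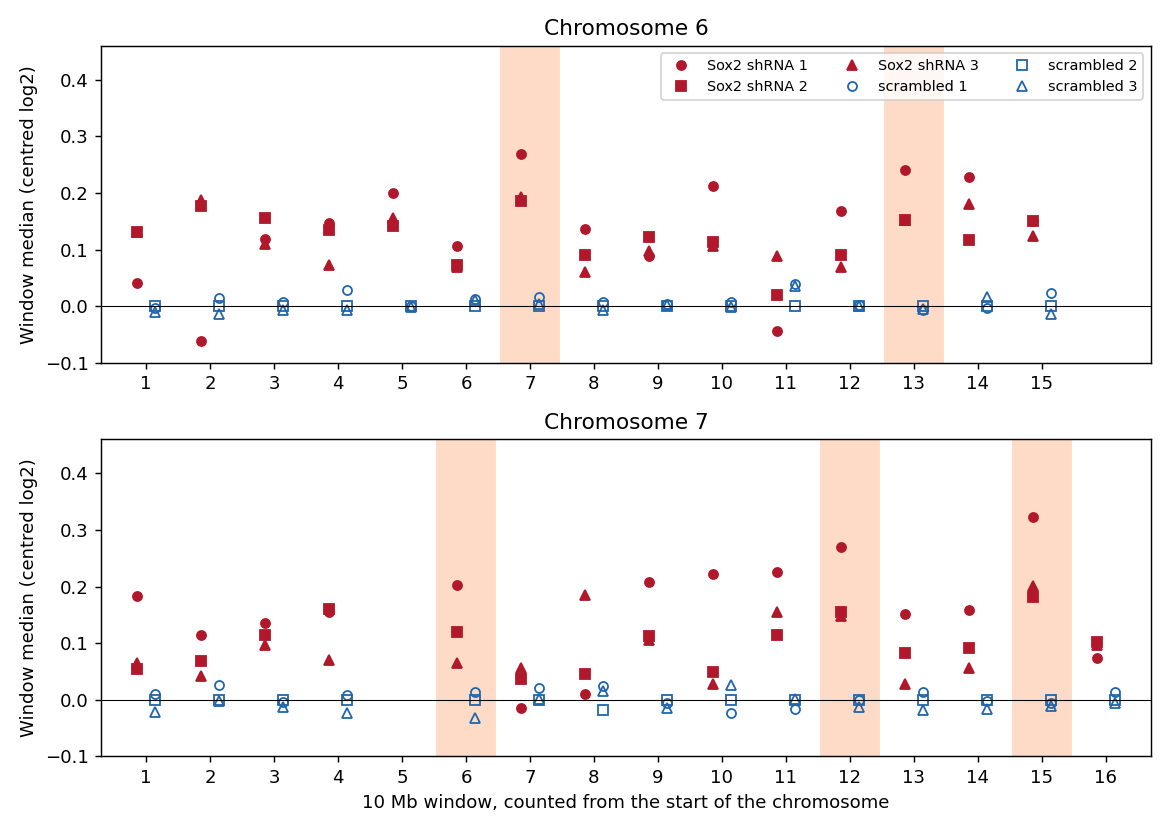
Median value of the probe sets in each 10 Mb window of chromosome 6 (top) and chromosome 7 (bottom), one symbol per array, with Sox2 shRNA arrays (filled red) left of scrambled arrays (open blue); shaded windows counted as high, and a window with 7 probe sets on chromosome 7 is not drawn. The Sox2 shRNA arrays lie above the scrambled arrays in most windows, and the shaded windows are not neighbours.

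In 10 Mb windows the excess was low and spread along both chromosomes. On chromosome 6 all 15 window medians exceeded that of all probe sets, from 0.089 at 100 to 110 Mb to 0.22 at 60 to 70 Mb. On chromosome 7 it was 14 of 15, from 0.027 at 60 to 70 Mb to 0.23 at 140 to 150 Mb. On the other chromosomes 102 of 236 windows exceeded it. The centred arrays did not overlap, with Sox2 shRNA higher, in 12 windows of chromosome 6 and 9 of chromosome 7, against 27.5% of the windows elsewhere. With Sox2 shRNA lower they were apart in 0 windows of both chromosomes and in 38.6% of those elsewhere. Values are centred near the scrambled arrays, so scrambled window medians lie close to 0. This count therefore says little of the spread between scrambled plates. The SD between the window medians of a chromosome was 0.035 on chromosome 6 and 0.047 on chromosome 7, and from 0.060 to 0.31 on the others. In 5 Mb windows the values were less even. On chromosome 6, 2 of 28 lay below 0, at 5 to 10 Mb (-0.061) and at 35 to 40 Mb (-0.070), and the highest stood at 0.28. On chromosome 7, 3 of 27 lay below 0, at 10 to 15 Mb (-0.14), at 95 to 100 Mb (-0.023) and at 140 to 145 Mb (-0.042). Elsewhere 132 of 410 such windows lay below 0.

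The highest window of chromosome 6, at 60 to 70 Mb, had a median of 0.27, 0.19 and 0.19 in Sox2 shRNA arrays and 0.015, 0 and 0.0045 in scrambled arrays over 33 probe sets. Its strongest calls were the G protein subunit Gng12 (1.46 ± 0.090, and 0.34 on a probe set not called), the chromatin remodeller Smarcad1 (0.97 ± 0.13, and -0.25 not called), and Serbp1, an mRNA-binding protein, which fell on the probe set named here (-0.94 ± 0.10) although 1 of its 5 probe sets was called higher. The window at 120 to 130 Mb, which holds the natural killer complex and Usp18, had a median of 0.24, 0.15 and 0.15 in Sox2 shRNA arrays and -0.0061, 0 and -0.0056 in scrambled arrays over 188 probe sets. In both windows the array groups were apart.

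On chromosome 7 the highest window, at 140 to 150 Mb, had a median of 0.32, 0.18 and 0.20 in Sox2 shRNA arrays and -0.0057, 0 and -0.011 in scrambled arrays over 140 probe sets. It holds Irf7, the Ifitm genes, Cd151, Igf2 and H19, and 41 of its probe sets were called higher (29.3%) and 7 lower. Its excess lay in the part from 145 to 150 Mb, with a median difference of 0.28 over 112 probe sets, against -0.042 over 28 in the other 5 Mb. The window at 110 to 120 Mb, with the Trim genes, had a median difference of 0.19, with 22 of 103 probe sets called higher (21.4%) and 3 lower (2.91%). The window at 50 to 60 Mb, with the kallikreins and the serum amyloid genes, had 0.18. Of its 174 probe sets 26 were called higher (14.9%, near the 14.6% of all) and 11 lower (6.32%, against 20.5%).

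The lowest windows had smaller shares called higher than these, and their shares called lower stayed under the 20.5% of all probe sets. On chromosome 6 the window at 100 to 110 Mb (27 probe sets) had 2 called higher (7.41%) and 5 lower (18.5%). Among the lower was the phosphatase subunit Ppp4r2 (-0.90 ± 0.16, and -0.29 not called). Sumf1, which activates sulfatases, was called higher on 1 probe set (1.22 ± 0.14) and stood at -0.28 on the other. Edem1, of the disposal of misfolded proteins, was called in both directions, at 0.49 ± 0.097 and -0.34. Without members that RefSeq places on another chromosome, its median was 0.16. On chromosome 7 the window at 60 to 70 Mb (31 probe sets) holds the Snrpn-Ndn imprinted region and the pigment gene Oca2 (0.59 ± 0.16). It had 1 called higher (3.23%) and 3 lower (9.68%). Of the 3 lower, 2 were probe sets of Ndn and the other was Mrps21 (-0.60), which RefSeq places on chromosome 3. The windows just short of the floor were those of chromosome 7 at 100 to 110 Mb, at 0.173, and at 150 to 160 Mb, at 0.170. In the latter the centred arrays overlapped as well. The first window of chromosome 6 stood at 0.202, but its centred arrays overlapped.

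Other window rules changed how many windows were high and whether they joined. With 5 Mb windows 9 of 28 were high on chromosome 6 and 5 of 27 on chromosome 7, against 8.54% of 410 elsewhere, and the longest run was 2 windows on each. With no margin over the median of all probe sets 12 and 9 of the 15 windows were high, against 26.3% of 236 elsewhere, and the longest run was 8 windows on chromosome 6 and 2 on chromosome 7. With a margin of 0.2 none was high on either chromosome.

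**Figure D3:**
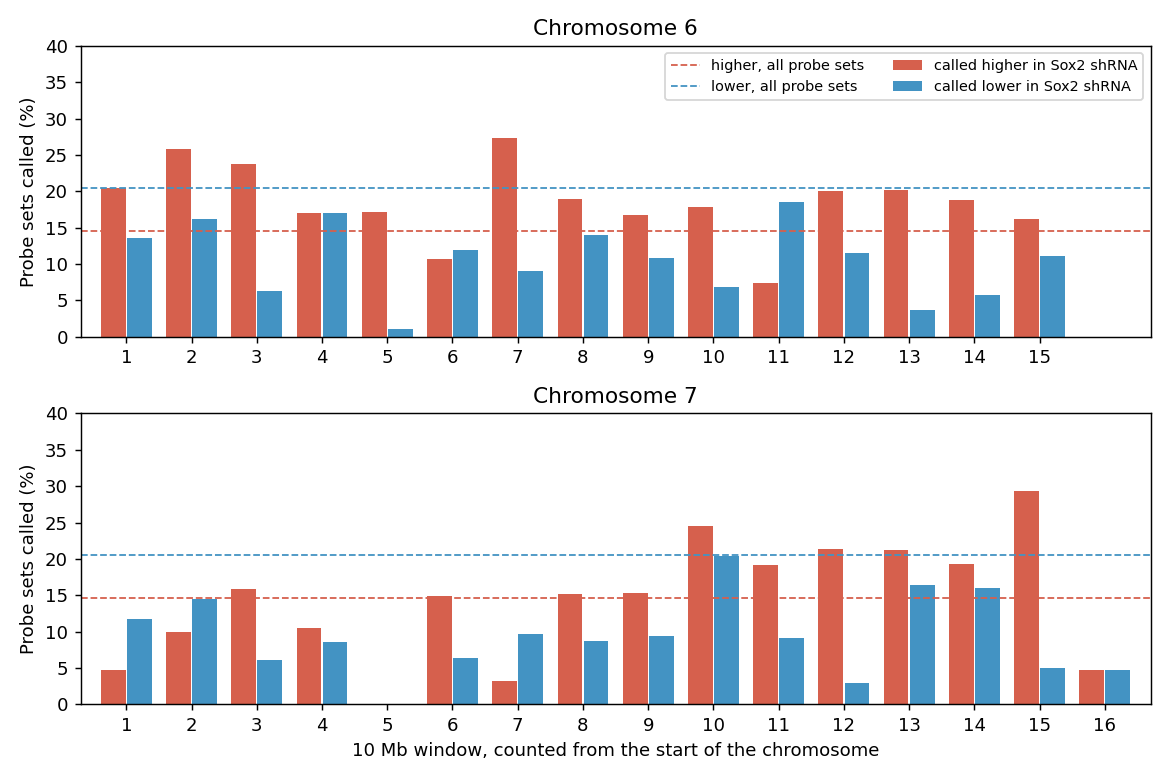
Share of probe sets called higher (red) and lower (blue) in Sox2 shRNA arrays in each 10 Mb window of chromosome 6 (top) and chromosome 7 (bottom), with dashed lines at the shares over all probe sets, 14.6% higher and 20.5% lower. The blue bars stay under the blue line in every window drawn, and the red bars fall below theirs in 2 windows of chromosome 6 and 5 of chromosome 7.

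The plot of calls by window shows both directions side by side. The share called lower was at most 18.5% on chromosome 6, at 100 to 110 Mb, and 20.4% on chromosome 7, at 90 to 100 Mb. It was smallest at 40 to 50 Mb of chromosome 6, with 1 of 99 probe sets called lower and 17 called higher. At the start of chromosome 7, rich in zinc finger genes, 4 of 85 were called higher and 10 lower.

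Neighbouring genes resembled each other little. Over the 772 pairs of adjacent genes of chromosome 6 the differences correlated at r = 0.055, and over the 1019 pairs of chromosome 7 at r = 0.11, against 0.0030 (X) to 0.19 (chromosome 3) elsewhere. These are descriptions across genes that share the same 6 arrays. In gene-averaged values, chromosome 6 had 5 runs of 3 or more adjacent genes called higher and chromosome 7 had 13, where the other chromosomes had 0 to 7. Runs of 3 or more called lower numbered 2 on chromosome 6 and 3 on chromosome 7, where the others had 1 to 27. The gene-averaged fit called 16.7% of all genes higher and 21.9% lower.

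The longest runs called higher had 5 genes each, where the other chromosomes reached 2 to 7. On chromosome 6 it joined Fgf23, a phosphate hormone of bone (0.35), the cyclin Ccnd2 (0.46), Tspan9 (0.46), the Hippo pathway factor Tead4 (0.51) and Tulp3 (0.44). On chromosome 7 one joined Ifitm3 (1.87), Ifitm6 (0.38), the desmosome protein Pkp3 (0.52), the interleukin receptor relative Sigirr (0.40) and Ptdss2 (0.35), which makes phosphatidylserine. Another joined the lipase Pnpla2 (0.37), Cracr2b (0.41), the tetraspanins Cd151 (0.57) and Tspan4 (0.40), and Chid1 (0.77). Between these runs of chromosome 7 lay Tmem80 (0.51), Eps8l2 (0.85) and the pentose phosphate enzyme Taldo1 (0.83), and further on the lysosomal protease Ctsd (0.36) between Ifitm10 (0.79) and Syt8 (0.61). These are gene-averaged log2 differences, each with a limma adjusted p under 0.05.

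Some shorter runs held relatives, such as the lectins Clec4n (0.27), Clec4d (1.81) and Clec4e (0.29) of chromosome 6. Others held genes of unlike function. Fam131b (1.13), the focal adhesion protein Zyx (0.81), the ephrin receptor Epha1 (0.32) and Tcaf2 (0.74) stood together on chromosome 6, and Serpinh1 (1.49), Gdpd5 (1.19) and Arrb1 (0.62) on chromosome 7. The steroid and drug oxidising cytochromes Cyp2b10 (0.47), Cyp2b13 (0.60) and Cyp2b9 (0.69) formed a run of relatives on chromosome 7. They lay in the longest stretch of genes above the median of all genes, 22 from Cyp2s1 to Pld3. The other chromosomes reached 6 to 13. The 22 include Usp12, which RefSeq places on chromosome 5. On chromosome 6 the longest such stretch was 13 genes of the Klra family, of which only Klra18 (1.87) and Klra2 (0.87) were called, and Klra2 not without any 1 scrambled array. Klra genes are near-identical copies, and the probe set of Klra18 has more than 1 alignment, so the signal of its members cannot be told apart. Runs called lower included Hoxa10, Hoxa11 and Hoxa11os (-0.67, -0.42 and -0.54), an antisense neighbour in the last case, and Prss23, Hikeshi and Eed (-0.67, -0.63 and -0.46).

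The members that changed most stood far outside the small shift of their chromosomes.

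**Figure D4:**
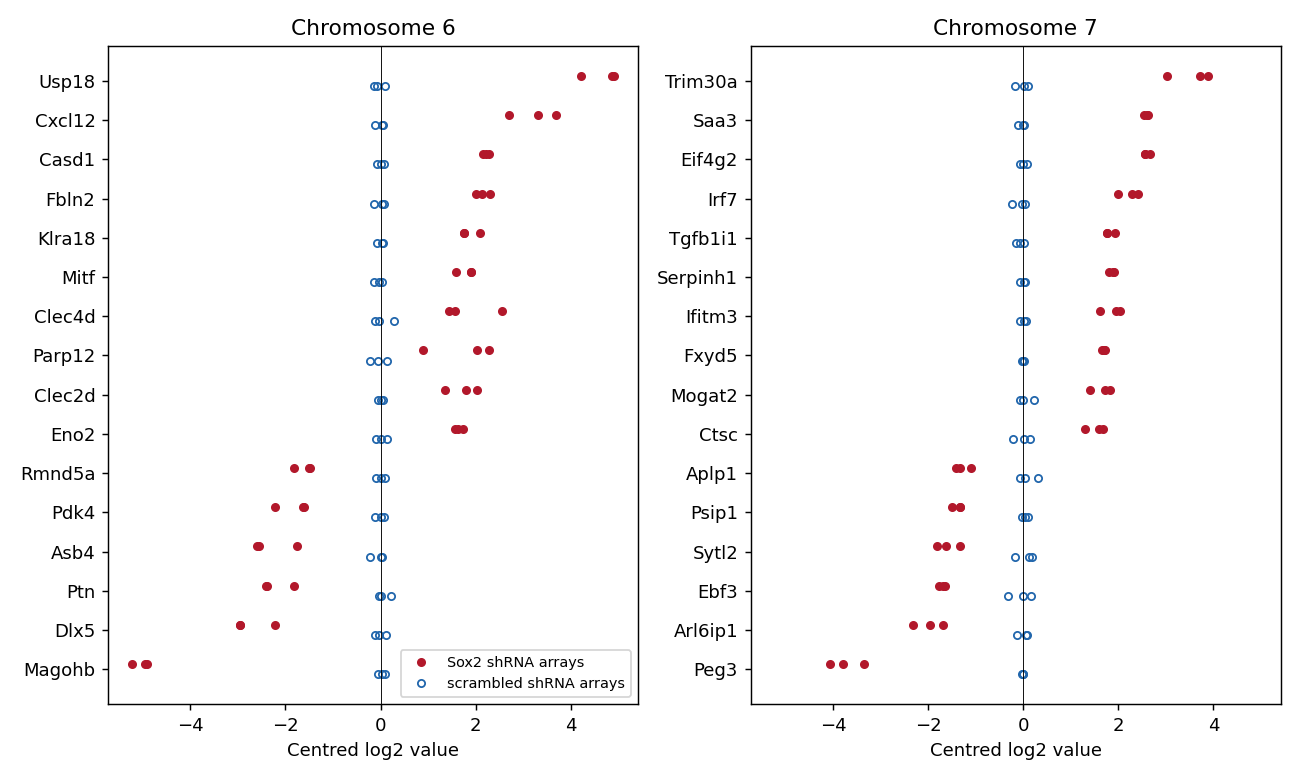
Centred log2 value of each array (filled red: 3 Sox2 shRNA; open blue: 3 scrambled shRNA) for the probe sets with the 10 largest rises and 6 largest falls on chromosome 6 (left) and chromosome 7 (right). The groups are apart for every gene shown, from Usp18 (4.22 to 4.90 against -0.14 to 0.092) to Magohb (-5.22 to -4.91 against -0.049 to 0.083).

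The interferon-induced genes had the largest share of probe sets called in 1 direction among the 14 lists. Of 24 probe sets 15 were called higher (62.5%) and 0 lower, with a median difference of 0.43. Over all probe sets 14.6% were called higher and 20.5% lower, with a median of 0.075, and the lists below can be set beside these values. By gene, 12 of 16 were called. Before adjustment 18 probe sets were higher and 0 lower at p under 0.05 in limma, and no alternative fit called any of them lower. Without 1 scrambled array 10 or 11 of the 24 were called, and with the spike-in covariate 10. The list holds antiviral effectors and the factors that switch them on.

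Usp18, which strips the ubiquitin-like ISG15 from proteins and restrains the interferon receptor, lay on chromosome 6 at 121195952 to 121220935. Its values were 4.22, 4.90 and 4.87 in Sox2 shRNA arrays and -0.070, -0.14 and 0.092 in scrambled arrays, 26.1-fold higher (4.71 ± 0.19, limma adjusted p = 4.1e-06). The groups were far apart. Trim30a, an interferon-induced ubiquitin ligase family member on chromosome 7, had 3.01, 3.71 and 3.89 in Sox2 shRNA arrays and 0.099, 0.022 and -0.18 in scrambled arrays (3.55 ± 0.22, adjusted p = 3.2e-05 by limma), and 1.31 on its other probe set.

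Irf7, the transcription factor that drives type I interferon genes, had 1.99, 2.42 and 2.28 in Sox2 shRNA arrays and -0.025, -0.23 and 0.032 in scrambled arrays (4.94-fold, 2.30 ± 0.14). Ifitm3, which blocks the entry of viruses at endosomal membranes, had 1.62, 1.95 and 2.03 in Sox2 shRNA arrays and -0.065, 0.013 and 0.061 in scrambled arrays (3.64-fold, 1.87 ± 0.13). Parp12, an ADP-ribosyltransferase induced by interferon, had 0.89, 2.02 and 2.28 in Sox2 shRNA arrays and -0.062, -0.23 and 0.13 in scrambled arrays (1.79 ± 0.32). In these 3 genes as well the groups were apart, and Sox2 shRNA array 1 was the lowest of its group, as it was for Usp18 and Trim30a.

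The remaining called members moved less. The RNA-editing enzyme Apobec1 differed by 1.25, Trim21, which binds antibody inside cells, by 0.71 and 0.80 on its probe sets, Trim34a by 0.76 and 0.52, Ifitm2 by 0.47, Ifitm6 by 0.38, and Trim30d and the exonuclease Isg20 by 0.31 each. Irf3 (0.19 to 0.39), Ifitm1 (0.24), Trim12a (0.23 and 0.30) and the peptide editor Tapbpl (0.35 and 0.013) were not called.

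Of 53 probe sets for genes of matrix, bone and signalling on chromosome 6, 19 were called higher (35.8%, against 14.6% of all) and 7 lower (13.2%, against 20.5%), with a median of 0.25. Cxcl12, the chemokine that keeps blood stem cells in the marrow, had 2.70, 3.32 and 3.69 in Sox2 shRNA arrays and 0.053, -0.12 and 0.020 in scrambled arrays (9.52-fold, 3.25 ± 0.23, limma adjusted p = 6.1e-05), and 2.26 ± 0.18 on its other probe set. Fbln2, an elastic fibre and basement membrane protein, had 2.01, 2.30 and 2.12 in Sox2 shRNA arrays and -0.15, 0.035 and 0.079 in scrambled arrays (4.46-fold). The groups were apart in both.

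Mitf, a transcription factor of melanocytes and osteoclasts, differed by 1.84 and 1.03, the complement proteases C1ra and C1s1 by 1.55 and 1.43, the lactate dehydrogenase subunit Ldhb by 1.49, and the caveolar protein Cav1 by 0.80.

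Among the members called lower, Dlx5, a homeobox factor of osteoblasts and limbs, had -2.22, -2.95 and -2.97 in Sox2 shRNA arrays and 0.11, -0.12 and -0.035 in scrambled arrays (6.48-fold lower, -2.69 ± 0.20, limma adjusted p = 8e-05), and its neighbour Dlx6 fell as well (-1.49 ± 0.27). The growth factor pleiotrophin, Ptn, had -1.82, -2.41 and -2.39 in Sox2 shRNA arrays and 0.21, 0 and -0.038 in scrambled arrays (-2.27 ± 0.17), and -0.68 on its other probe set. The groups were apart in both. The fat cell regulator Pparg differed by -0.68 and the membrane protein Emp1 by -0.82.

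Col1a2, a chain of type I collagen, was split between its probe sets. The 1423110_at probe set lay at -0.95, -0.64 and -0.70 in Sox2 shRNA arrays and -0.13, 0.035 and 0.12 in scrambled arrays (-0.77 ± 0.12). The 1450857_a_at probe set lay at -0.37, 0.043 and 0.15 in Sox2 shRNA arrays and -0.097, 0 and 0.11 in scrambled arrays (-0.06 ± 0.15, limma adjusted p = 0.76), with overlapping groups. With the spike-in covariate the first was no longer called (-0.42) and the other stood at 0.45.

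The chromosome 7 list of matrix, growth factor and protease genes had 21 of 57 probe sets called higher (36.8%, against 14.6% of all) and 2 lower (median 0.29), which fell to 13 and 2 without scrambled array 3 and 14 and 2 without scrambled array 2. Saa3, an acute-phase apolipoprotein, had 2.55, 2.63 and 2.59 in Sox2 shRNA arrays and 0.020, -0.11 and -0.0095 in scrambled arrays (6.16-fold, 2.62 ± 0.093, limma adjusted p = 2.4e-06). Serpinh1, the collagen chaperone of the endoplasmic reticulum, had 1.91, 1.90 and 1.81 in Sox2 shRNA arrays and 0.017, 0.040 and -0.065 in scrambled arrays (3.67-fold), and 1.10 on its other probe set. The groups were apart in both. The lysosomal protease Ctsc differed by 1.55, the secreted protease Htra1 by 1.37 and 1.01, Mfge8, which tags dying cells for uptake, by 1.17, the tetraspanin Cd151 by 0.51, 0.66 and 1.002 on 3 of 5 probe sets, and the receptor Igf1r by 0.64 and 0.68. The protease Prss23 was the gene that fell (-0.85 and -1.32, and 0.17 on a probe set not called).

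Other large changes lay outside the lists. On chromosome 6 Magohb, a subunit of the exon junction complex that marks spliced mRNA, had -4.91, -4.96 and -5.22 in Sox2 shRNA arrays and 0.083, -0.049 and 0.020 in scrambled arrays (33.1-fold lower, -5.05 ± 0.11, limma adjusted p = 5.4e-07). The groups were further apart than for any other gene named here. Pdk4, which restrains pyruvate oxidation, fell by 1.81 on the log2 scale and Rmnd5a, of a ubiquitin ligase, fell by 1.60. Casd1, a sialic acid acetyltransferase, rose by 2.22 and 0.32 on its 2 probe sets, both called. The glycolytic enzyme Eno2 rose by 1.63.

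On chromosome 7 the translation initiation factor Eif4g2 had 2.67, 2.56 and 2.56 in Sox2 shRNA arrays and 0.073, -0.067 and -0.016 in scrambled arrays (6.06-fold), with 3 of its 4 probe sets called higher. The focal adhesion cofactor Tgfb1i1 differed by 1.88, the sodium pump regulator Fxyd5 by 1.69 and Mogat2, of fat absorption, by 1.60. Arl6ip1, a shaper of the endoplasmic reticulum, was lower on all 3 probe sets (-1.99 on the lowest), and Sytl2 differed by -1.63. Ebf3 was called lower on 1 of 3 probe sets (-1.65, the highest at -0.11) and Aplp1 on 1 of 2 (-1.38 and -0.085). Psip1 (-1.42) has its probe set listed on chromosome 7, but RefSeq places the gene on another chromosome, as for 63 of the 2700 members with a RefSeq name.

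The imprinted genes of both chromosomes gave mixed calls. On chromosome 7, 2 of 47 probe sets were called higher and 4 lower (median 0.042). Peg3, a zinc finger gene read from the paternal copy, had -4.06, -3.79 and -3.36 in Sox2 shRNA arrays and -0.035, 0 and -0.011 in scrambled arrays on 1433924_at (13.2-fold lower, -3.72 ± 0.17), -1.73 ± 0.095 on 1417355_at and 0.18 ± 0.11 on 1417356_at. Only the last had overlapping groups. Ndn, a growth suppressor of neurons, was called lower on 2 of 8 probe sets (-0.49 and -0.73), of which the lower was not called without any 1 scrambled array.

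The neighbours Igf2 and H19 sit at the end of chromosome 7. The growth factor Igf2 had 0.63, 1.02 and 1.04 in Sox2 shRNA arrays and -0.19, 0 and 0.0053 in scrambled arrays on 1448152_at (0.96 ± 0.14, limma adjusted p = 0.0015). On 1415931_at Igf2 differed by 0.18 ± 0.15, with overlapping groups. The noncoding RNA H19 had 0.40, -0.037 and 0.057 in Sox2 shRNA arrays and 0.15, 0 and -0.13 in scrambled arrays (0.13 ± 0.14), also overlapping.

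On chromosome 6, 1 of 13 imprinted probe sets was called higher (7.69%) and 3 lower (23.1%, near the 20.5% of all), with a median of 0.22. The 3 lower calls were 2 probe sets of Asb4 and that of Dlx5, given above. Asb4, an adaptor of a ubiquitin ligase, lay at -1.75, -2.56 and -2.59 in Sox2 shRNA arrays and 0.024, 0 and -0.22 in scrambled arrays (-2.23 ± 0.22), and at -1.96 ± 0.12 on its other probe set. Nearby Pon3, an antioxidant esterase, had 1.19, 1.23 and 1.46 in Sox2 shRNA arrays and 0.13, 0 and -0.047 in scrambled arrays (1.27 ± 0.11). Pon3, which ends at 5206278, and Asb4, which starts at 5340156, are close on the chromosome and moved in opposite directions.

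The Hoxa cluster, which patterns the body axis and limbs in the order of its genes, had 2 of 14 probe sets called higher and 2 lower (median 0.075). Hoxa3 differed by 0.35 ± 0.095 on 1 of 2 probe sets. Hoxa10 had -1.24, -0.61 and -0.29 in Sox2 shRNA arrays and -0.10, -0.14 and 0.11 in scrambled arrays (-0.67 ± 0.22, limma adjusted p = 0.049), and Hoxa11 differed by -0.42 ± 0.13. Without any 1 scrambled array Hoxa3, Hoxa10 and Hoxa11 were not called, and with the spike-in covariate Hoxa10 stood at 0.14.

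Of 34 probe sets for cell cycle genes of chromosome 7, 2 were called higher (5.88%, against 14.6% of all) and 11 lower (32.4%, against 20.5%), with a median of 0.030 and falls of the repair endonuclease Ercc1 (-0.58 ± 0.091), the death effector Bax (-0.66 ± 0.12), the spindle checkpoint protein Bub3 (-0.62 and -0.75 on 2 of 4 probe sets), the kinesin Kif22 (-0.40 on 1 of 3), the Polycomb subunit Eed (-1.11 on 1 of 2) and the ribonucleotide reductase Rrm1 (-0.44 and -0.77). On chromosome 6, 7 of 40 were called higher (17.5%, near the 14.6% of all) and 2 lower (median 0.083). Of the 7, 5 were probe sets of Ccnd2, and averaged by gene 1 was called higher and 2 lower of 17. With the spike-in covariate the calls of Bax (-0.37), Bub3 (-0.45) and Kif22 (-0.28) were lost, and 0 higher and 2 lower calls were left on chromosome 7, and 1 and 0 on chromosome 6. Without scrambled array 2 or 3 the 11 lower calls of chromosome 7 were 4, and without scrambled array 1 they were 7.

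The G1 cyclins of both chromosomes have several probe sets each. Ccnd2 was called higher on 5 of 7, from 0.35 to 1.16, and its 1416123_at probe set was among those not called, with -0.54, 0.088 and 0.55 in Sox2 shRNA arrays and 0.51, -0.13 and -0.16 in scrambled arrays. Ccnd1 differed by 0.43, -0.48 and 0.19 on its 3 probe sets, and the one at -0.48 was called. The mitotic factor Foxm1 differed by 0.44 ± 0.11 on 1 of 4 probe sets and the ubiquitin ligase Rad18 by -0.48 ± 0.099 on 1 of 2. Without any 1 scrambled array, the called probe set of Ccnd1 and that of Foxm1 were not called. Of the Ccnd2 probe sets, only 1455956_x_at kept its call with the spike-in covariate, at a Ccnd2 difference of 0.66.

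Of 25 probe sets for Hippo, Wnt and TEAD genes, 4 were called higher (16%, near the 14.6% of all) and 0 lower. The median was 0.074, against 0.075 over all probe sets, and 6 were higher and 1 lower at an unadjusted p under 0.05 in limma. Tead2, a DNA-binding partner of YAP, had 0.72, 0.90 and 0.85 in Sox2 shRNA arrays and 0.060, -0.15 and -0.028 in scrambled arrays (0.86 ± 0.10), with groups apart. Tead4 differed by 0.68 ± 0.21 on 1 of its 2 probe sets, the Wnt coreceptor Lrp6 by 0.39 ± 0.10 and the ligand Wnt16 by 0.36 ± 0.12. Without Sox2 shRNA array 2, or without scrambled array 2 or 3, only 1 of the 4 was called, and Tead4 and Wnt16 were not called without any 1 scrambled array. Tead1 had 0.39, 0.24 and 0.095 in Sox2 shRNA arrays and 0.058, 0.29 and -0.10 in scrambled arrays (0.16 ± 0.13, limma adjusted p = 0.37), with overlapping groups. Tgfb1, the growth factor of bone matrix, differed by -0.16 ± 0.13 and overlapped as well.

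Among natural killer lectin genes 8 of 51 probe sets were called higher (15.7%, near the 14.6% of all) and 0 lower (median 0.18), and 18 were higher and 0 lower at an unadjusted p under 0.05 in limma. Without any 1 scrambled array 3 or 4 were called. Clec2d, a ligand that restrains natural killer cells and osteoclasts, had 1.80, 2.02 and 1.36 in Sox2 shRNA arrays and -0.061, 0.045 and 0.0094 in scrambled arrays (1.73 ± 0.16). Clec4d, a myeloid lectin, had 2.56, 1.57 and 1.44 in Sox2 shRNA arrays and 0.28, -0.039 and -0.11 in scrambled arrays (1.81 ± 0.28). The groups were apart in both.

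In 2 lists no probe set was called. They were the 22 of the kallikreins (median 0.18), secreted proteases, and the 6 of the Gimap GTPases of lymphocytes (median 0.15). Gimap4, at 0.98, 0.16 and 0.29 in Sox2 shRNA arrays and 0.085, -0.068 and -0.060 in scrambled arrays, shows Sox2 shRNA array 1 above the rest of its group. Before adjustment, limma gave 3 of the kallikrein probe sets and 1 of the Gimap probe sets a p under 0.05, all higher. Without Sox2 shRNA array 3 it called 2 kallikrein probe sets, and without Sox2 shRNA array 1 it called 1 in each list. The other array weights tried called 1 kallikrein probe set, and the spike-in covariate 1 Gimap probe set.

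Of 67 probe sets for zinc finger genes of chromosome 7, 5 were called higher (7.46%, against 14.6% of all) and 7 lower (10.4%, against 20.5%), with a median of 0.10. Zfp764 (1.22) and Zfp329 (1.07 on 1 of 2 probe sets) were up and Zfp428 (-0.90) was down. Peg3, given above, made up 2 of the 7 lower calls. Of 34 probe sets for Apoe, its neighbours and the Ceacam and Psg adhesion families, 5 were called higher (14.7%, near the 14.6% of all) and 1 lower (median 0.19). Psg28 differed by 0.56, Ceacam1 by 0.48 and 0.37 on 2 of 8 probe sets, Ceacam9 by 0.33 and the lipid carrier Apoe by -0.43. Without any 1 scrambled array Apoe and Ceacam9 were not called, and with the spike-in covariate no probe set of these families was.

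Probe sets of the same gene did not always move together. Of the member genes with several probe sets, 8 of 302 on chromosome 6 and 8 of 317 on chromosome 7 had probe sets called in both directions. Among them were Foxp1, a forkhead factor (-0.72 to 0.71 over 7 probe sets), Serbp1, Tnrc6a, of the microRNA machinery (-0.75 to 0.91 over 8), and the helicase Dhx32 (-1.07 and 0.75). The median range within a gene was 0.39 on chromosome 6 and 0.34 on chromosome 7. Neither these ranges nor the counts are given for the other chromosomes, so nothing particular to chromosomes 6 and 7 is read from them.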

How the data were processed

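RNA of 6 cultures, 3 with a Sox2 hairpin and 3 with a scrambled hairpin, was hybridised to 1 array each, per the labels' protocols. Per the submitters' processing notes, GCOS 1.4 and RMA made the values. The sources used here give no RMA version, genome build or annotation release. The deposited values were taken as log2, since RMA returns log2 and the authors state no base. They are centred per probe set, as the values themselves show: scrambled array 2 is exactly 0 in 37.5% of the single-gene probe sets. Centring removes each probe set's level but leaves differences between arrays. The other deposited table held the same values, with 0 cells differing.

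Of 22690 probe sets, 64 are array controls; 21556 of the others name 1 gene. Chromosome and start are those of the first alignment listed, and 158 members list several. Groups were compared with limma 3.58.1 (R 4.3.3) on all 6 arrays, with Benjamini-Hochberg adjustment over the 21556 probe sets and a threshold of 0.05. Replicates are plates of 1 line per hairpin, so p-values measure the spread between plates and arrays only, and 3 arrays per group limit the precision. Windows of 10 Mb with at least 10 probe sets were described by their medians. The script was tested on simulated data. The segment planted there had a larger shift than the median difference of either chromosome, so smaller shifts were not tried. Promoters come from RefSeq tables of GRCm38.p6, a build not mixed with the deposited positions, with an entry for 14 of the 16 interferon genes and for 1438 of the 1791 member genes.

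The members and the 14 gene lists were chosen with earlier results of these data known. Named genes were, per chromosome, the 10 largest rises and 6 largest falls among called probe sets whose groups do not overlap, up to 3 genes of the 3 highest windows and the 1 lowest, up to 4 genes of each list taken in order of adjusted p, and Col1a2, Dlx5, Cxcl12, Usp18, Irf7, Tead1, Tead2, Ccnd1, Ccnd2, Igf2, H19, Peg3 and Tgfb1. Some results that this rule names are not reported here. Genes given beyond these (further list members, runs of neighbours and genes with opposed probe sets) were chosen after their values were seen. Figures were drawn with matplotlib 3.10.9.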

Additional observations from a re-analysis of the deposited data

How the results depend on the processing

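Depth in the sense of signal over background is unknown in centred values, so dim probe sets could not be set apart, and positions rest on an annotation that places 63 members elsewhere than RefSeq. Medians over each chromosome stayed positive in all alternatives run. Centring each array on its median gave median differences of 0.108 on chromosome 6 and 0.107 on chromosome 7. It lowers every difference on the array by the same amount. A mean in place of the median gave 0.129 and 0.128. With the spike-in mean as covariate the calls were 100 higher and 28 lower on chromosome 6 and 87 and 38 on chromosome 7, the median differences 0.1001 and 0.0463, and the high windows, by the margin alone, 10 and 5. Averaging the probe sets of a gene left 93 genes called lower on chromosome 7. An adjusted p under 0.01 left 113 and 57 calls on chromosome 6 and 104 and 70 on chromosome 7, and at least 2-fold left 45 and 21, and 36 and 21. High windows on chromosome 6 numbered 4 without _x_at and _s_at probe sets and 5 with windows shifted by 5 Mb. With 5 Mb windows there were 9 and 5, with a margin of 0 there were 12 and 9, and with a margin of 0.2 there were 0 and 0. Without members that RefSeq places elsewhere, an alternative chosen after seeing the data, calls were 223 and 110 on chromosome 6 and 248 and 129 on chromosome 7. The causes of these changes were not tested, beyond what some alternatives set by construction: stricter thresholds, fewer genes, or the equal shift of centring.

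With each array left out in turn, calls on chromosome 6 ranged from 110 to 294 higher and 60 to 134 lower, and on chromosome 7 from 113 to 327 and 73 to 156; the lowest counts were those without scrambled array 3. Median differences ranged from 0.122 to 0.159 and 0.117 to 0.162, lowest without Sox2 shRNA array 1, and high windows from 2 to 5 and 1 to 4. Sox2 shRNA array 1 left out gave 5 high windows on chromosome 6 and 1 on chromosome 7.

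The replicate numbers were not shown to pair the arrays: deviations of the same-numbered arrays correlated at 0.125, -0.0203 and 0.173. With the number as a replicate block, calls were 215 and 116 on chromosome 6 and 232 and 135 on chromosome 7, with 2 and 3 high windows. Among named probe sets Ccnd2 1448229_s_at and Ceacam9 lost their call and Ccnd1 1417419_at gained one.

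Among named probe sets the sign changed with the spike-in covariate in Ccnd1 1417419_at (-0.035), Ccnd2 1416123_at (0.49), Col1a2 1450857_a_at (0.45), Hoxa10 (0.14), Hoxa11 (0.00057), Igf2 1415931_at (-0.28), Tead1 (-0.076), Klk8 (-0.19), H19 (-0.32), Gimap4 (-0.26) and Gimap1 (-0.42). It changed with array weights in Ccnd2 1416123_at (0.22) and Col1a2 1450857_a_at (0.034). With an array left out, Ccnd2 1416123_at ranged from -0.30 to 0.24 and Col1a2 1450857_a_at from -0.17 to 0.094. Of these, Hoxa10 and Hoxa11 had been called.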

Other observations

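Members of gene families taken as tissue-restricted made up 5.06% of the probe sets of chromosome 6 and 4.71% of those of chromosome 7. On the other chromosomes the share was 1.03%. Whether this line uses them is unknown in centred values. The families were picked after values had been seen. Their median log2 difference, Sox2 shRNA minus scrambled shRNA, was 0.17 on chromosome 6 (63 probe sets), 0.23 on chromosome 7 (71 probe sets) and 0.18 elsewhere (194 probe sets). Called higher were 6 (9.52%), 13 (18.3%) and 19 (9.79%), against 14.6% of all probe sets. Called lower were 0, 0 and 7 (3.61%), against 20.5% of all. Without these families the medians were 0.15 on chromosome 6, 0.14 on chromosome 7 and 0.056 elsewhere, and 9.90%, 10.1% and 22.3% of the probe sets were called lower.

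Probe sets aligned to the same chromosomes that name no gene or several genes were not members. On chromosome 6 the 32 that name no gene had array medians of 0.26, 0.11 and 0.098 in Sox2 shRNA arrays and -0.018, 0 and -0.020 in scrambled arrays, and on chromosome 7 the 20 such probe sets had 0.31, 0.22 and 0.19 in Sox2 shRNA arrays and -0.016, 0 and -0.0093 in scrambled arrays. Those that name several genes had median differences of 0.23 on chromosome 6 (39 probe sets) and 0.20 on chromosome 7 (38 probe sets). In both kinds the Sox2 shRNA arrays lay above the scrambled arrays on both chromosomes, as they did over all single-gene probe sets. Values of these kinds are not given for the other chromosomes, so nothing particular to chromosomes 6 and 7 is read from them.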
